A study of Mus musculus with 18 samples.

Results

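Blood vessel endothelial cells line every vessel of a tumor, and 10 genes that mark them were followed here across 18 MC38 tumors. The genes were listed by name as endothelial markers, at a time when earlier results of these data were known. They are Pecam1, Cdh5, Kdr, Flt1, Tek, Tie1, Emcn, Esam, Plvap and Vwf. All 10 had a probe set with a single gene symbol, out of 18193 such genes on the array. MC38 is a mouse colon carcinoma cell line. It was injected with Matrigel subcutaneously into C57BL/6-Ly5.1 mice aged 6 to 12 weeks, and tumors were taken on day 22. The control group (n = 5) received vehicle and a control IgG. The anti-CD40 group (n = 4) received vehicle and an agonist CD40 antibody of the mIgG1 type, which stimulates antigen presenting cells. The MEKi group (n = 5) received the MEK inhibitor GDC-0623 at 30 mg/kg daily with the control IgG, and the MEKi/CD40 group (n = 4) received both drugs. Antibodies were given on treatment days 3, 5 and 7 and once more shortly before sampling. The tumors are transplants of 1 cell line, each array held RNA of a whole tumor piece from 1 mouse, and the p-values measure the spread between these mice.

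Endothelial cells are held together by adhesion molecules at their borders, among them PECAM-1, VE-cadherin (Cdh5) and ESAM. Their growth is driven by VEGF, which signals through VEGFR-2 (Kdr) and is trapped by VEGFR-1 (Flt1), while vessel stability is set by the receptors TIE2 (Tek) and TIE1, TIE2 being activated by angiopoietin-1. Plvap forms the diaphragms of fenestrae and caveolae, Emcn is a sialomucin of capillary and venous surfaces, and Vwf is the clotting factor stored in Weibel-Palade bodies. In whole tumor RNA, fewer endothelial cells and less RNA per endothelial cell cannot be told apart.

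Of the 10 genes, 5 had an entry in the RefSeq promoter table of GRCm38.p6 (Kdr, Flt1, Tek, Tie1 and Emcn). The windows of both receptor pairs are shown because, in the data below, Tek alone among these 4 receptors passed the test on the probe set that stood for its gene. Each window covers 250 bases before to 50 after the start, read 5′ to 3′ on the gene's strand. Capitals mark GGAAG, the core read by ETS factors that are used widely in endothelial genes, or its reverse complement CTTCC. Kdr lies at chr5:75978406-75978705 (minus strand), Flt1 at chr5:147725962-147726261 (minus), Tek at chr4:94739039-94739338 (plus) and Tie1 at chr4:118489800-118490099 (minus).
Kdr: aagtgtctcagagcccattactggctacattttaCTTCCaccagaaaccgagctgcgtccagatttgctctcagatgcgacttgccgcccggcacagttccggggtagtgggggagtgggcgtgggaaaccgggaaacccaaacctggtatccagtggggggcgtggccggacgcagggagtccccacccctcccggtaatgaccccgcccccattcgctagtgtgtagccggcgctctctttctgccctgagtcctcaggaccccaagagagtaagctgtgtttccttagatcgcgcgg
Flt1: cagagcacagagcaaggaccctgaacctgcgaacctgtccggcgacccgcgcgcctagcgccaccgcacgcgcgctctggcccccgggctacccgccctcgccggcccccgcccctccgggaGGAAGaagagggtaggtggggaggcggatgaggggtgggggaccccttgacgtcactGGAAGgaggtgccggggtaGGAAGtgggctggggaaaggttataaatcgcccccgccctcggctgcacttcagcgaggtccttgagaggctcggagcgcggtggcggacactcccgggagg
Tek: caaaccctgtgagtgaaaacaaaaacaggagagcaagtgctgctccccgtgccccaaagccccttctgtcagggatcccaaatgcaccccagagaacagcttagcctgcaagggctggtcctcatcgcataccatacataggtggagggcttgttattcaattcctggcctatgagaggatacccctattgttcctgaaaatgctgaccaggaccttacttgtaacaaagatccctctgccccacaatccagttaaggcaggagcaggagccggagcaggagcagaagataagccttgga
Tie1: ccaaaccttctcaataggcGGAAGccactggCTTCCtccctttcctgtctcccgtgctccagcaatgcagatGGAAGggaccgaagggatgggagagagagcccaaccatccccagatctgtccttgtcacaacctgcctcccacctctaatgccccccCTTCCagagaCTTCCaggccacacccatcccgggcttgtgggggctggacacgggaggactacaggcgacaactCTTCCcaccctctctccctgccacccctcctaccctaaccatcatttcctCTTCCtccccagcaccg
GGAAG was found 1 time in the Kdr window, 3 times in Flt1, 7 times in Tie1 and 2 times in Emcn (not shown), and 0 times in Tek. The shorter GGAA was not counted, and its reverse complement TTCC does occur in the Tek window, so the core is not absent there. Of 32851 promoters in the table, 71.4% held at least 1 match, with a median of 1.0. The GATA motif AGATAA was in the Tek window (1 match) and in none of the other 4, against 11.2% of all promoters. TATAAA was in the Flt1 window and none of the other 4, against 13.6%. These matches describe letters and not bound sites.

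The values are deposited log2 signals, on which a difference of 1 is a doubling, and levels of different probe sets are not compared with each other. The mean signal of Plvap over the 18 tumors lay above 83.9% of all probe sets. Pecam1, Esam, Emcn and Flt1 lay above 70.6 to 73% of them, Vwf above 66.4%, Cdh5 above 65.7% and Kdr above 60.9%. Tek lay above 56%. Tie1 was below 3 on 15 of 18 arrays and read 2.64 on 8 of them, so its probe set was near background and its values carry little information. Kdr also read the same value, 5.54, on 5 arrays. The tissue label was checked against epithelial genes of colon. In every group 5 of 6 (Krt8 and Epcam among them) were below 3 on all arrays, so these probe sets were at or near background. The mean log2 signal of 10 macrophage genes was between 11.25 and 12.9 on every array.

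A few facts of the series touch all results. The sample titles carry a number that falls into a low and a high series. All anti-CD40 and MEKi/CD40 tumors are in the low series, while control and MEKi have 2 in the low and 3 in the high series each. What the number stands for is not stated. Skeletal muscle genes reached a mean log2 signal of 8.57 on 1 MEKi/CD40 array, against at most 3.11 in the control group. Adipocyte genes, of which 9 of 11 were measured, averaged 3.58 to 4.35 in control tumors, 3.40 to 6.28 with anti-CD40, 4.06 to 5.56 with MEKi and 4.33 to 11.11 with MEKi/CD40. Adipoq, the defining adipokine, had a mean of 2.66 in control and 8.26 in MEKi/CD40 tumors. Fibroblast genes averaged 9.35 ± 0.30 (SD) in control, 11.04 ± 0.31 in MEKi and 12.59 ± 0.21 in MEKi/CD40 tumors.

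**Figure D1:**
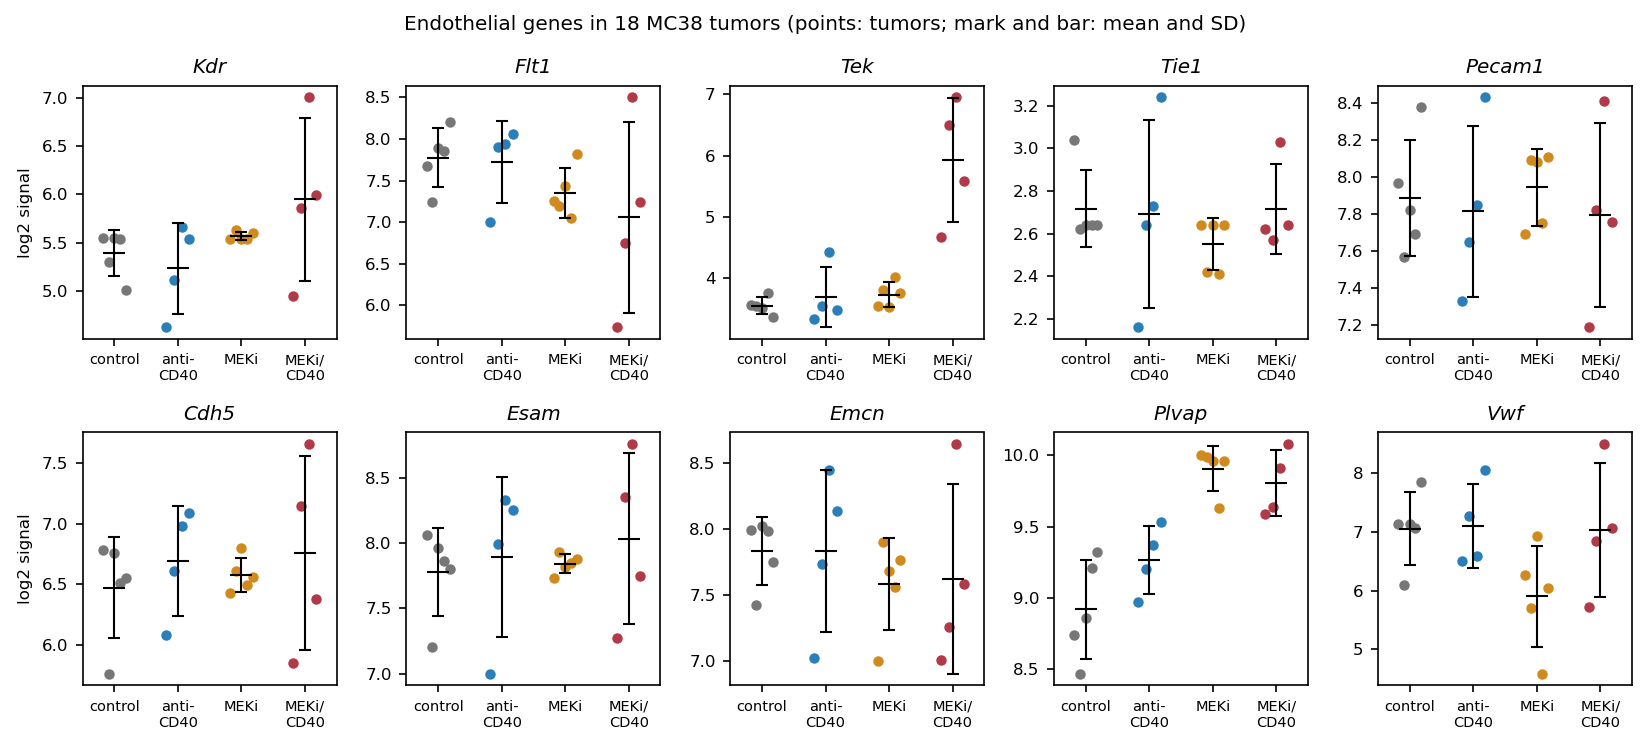
Log2 signal (vertical axis) of each of the 10 genes in control (n = 5), anti-CD40 (n = 4), MEKi (n = 5) and MEKi/CD40 (n = 4) tumors (horizontal axis), with a point per tumor and the mean and SD in black. Plvap in MEKi tumors (9.63 to 10.00) and Tek in MEKi/CD40 tumors (4.67 to 6.95) lie above every control tumor, while the other 8 genes overlap between groups.

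What did MEK inhibition alone do to the endothelial genes? Plvap, the diaphragm protein of permeable capillaries, rose. It read 8.74, 8.47, 8.86, 9.21 and 9.32 in control tumors and 10.00, 9.99, 9.96, 9.63 and 9.96 in MEKi tumors. The groups did not overlap, and the MEKi values lay close together. The difference was 0.99 ± 0.17 (SE) on the log2 scale, or 1.98-fold (limma, adjusted p = 0.0138). Of the 10 genes only Plvap was called, against a background of 7.83% of all 45037 probe sets called in either direction and 17.8% of those with a mean signal of at least 5. The median difference of the 10 genes was 0.06, against -0.02 over the probe sets with a mean of at least 5. The call for Plvap held without any 1 tumor (adjusted p at most 0.0391) and in a fit that blocked on the number series (0.0218). With the 2 control and 2 MEKi tumors of the low series the difference was 1.39, with an adjusted p of 0.238.

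Vwf did not pass the test. Its log2 signals were 7.13, 6.09, 7.13, 7.07 and 7.84 in control tumors and 6.27, 5.71, 6.92, 4.59 and 6.04 in MEKi tumors. The ranges overlapped, and the lowest MEKi tumor stood well below the rest. The difference was -1.15 ± 0.46, with an unadjusted p of 0.0376 and an adjusted p of 0.198 in limma. It was -0.08 with the adipocyte score as a covariate and -0.62 within the low series. With both drugs Vwf read 5.72, 6.85, 8.49 and 7.06, a range that took in all control tumors.

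None of the junction genes Pecam1, Cdh5 and Esam was called under MEK inhibition. Pecam1, a homophilic adhesion molecule, had a mean of 7.89 ± 0.31 (SD) in control and 7.94 ± 0.21 in MEKi tumors (difference 0.06, 95% interval -0.32 to 0.43). For Cdh5, the cadherin of endothelial adherens junctions, the interval was -0.33 to 0.55. For Esam, an adhesion molecule of tight junctions, it was -0.28 to 0.41. These intervals leave room for changes of up to about those sizes, and an adjusted p above the threshold does not show that the levels were alike. The interval for Emcn was -0.68 to 0.18 and for Kdr -0.06 to 0.42. Kdr was almost constant in the MEKi tumors (5.54, 5.63, 5.54, 5.54 and 5.60), near the value it repeated on other arrays.

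Flt1 is measured by 4 probe sets, of which 1 was called in some comparisons. The brightest stood for the gene and read 7.68, 7.24, 7.89, 7.86 and 8.21 in control and 7.26, 7.19, 7.44, 7.05 and 7.82 in MEKi tumors. Its difference of -0.42 ± 0.20 did not pass (limma, adjusted p = 0.293). The third in brightness, singled out after its values were seen, read 5.62, 5.13, 5.58, 6.08 and 5.88 in control and 4.96, 4.71, 5.14, 4.77 and 5.14 in MEKi tumors. Its groups overlapped slightly, and the difference of -0.71 ± 0.18 passed narrowly (limma, adjusted p = 0.0488). That call was lost on leaving out any 1 of 9 tumors (adjusted p up to 0.106) and held without control replicate 2. With MEKi/CD40 the same set read 4.44, 4.71, 5.14 and 4.60, lower than control by 0.94 ± 0.22 (adjusted p = 0.0282) and lower than anti-CD40 by 0.99 ± 0.20 (adjusted p = 0.0276 in limma). These calls were lost without any 1 of 7 of 9 tumors (up to 0.0803) and any 1 of 6 of 8 (up to 0.0867). MEKi against anti-CD40 gave -0.76 ± 0.16 (limma, adjusted p = 0.0407), lost without any 1 of 8 of 9 tumors (up to 0.118). With the adipocyte covariate the adjusted p was 0.482 for MEKi and 0.177 for MEKi/CD40 against control, and the latter was 0.194 with the series block. The gap between these 2 probe sets was compared across groups with exact permutation tests, two-sided and adjusted over 6 tests. The largest was MEKi against anti-CD40, where the gap differed by -0.39 (exact p = 0.0159, adjusted p = 0.0952), so no difference between the probe sets passed. The other sets, the second and the dimmest, were not called in any comparison, the dimmest being below 3 on 17 of 18 arrays.

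**Figure D2:**
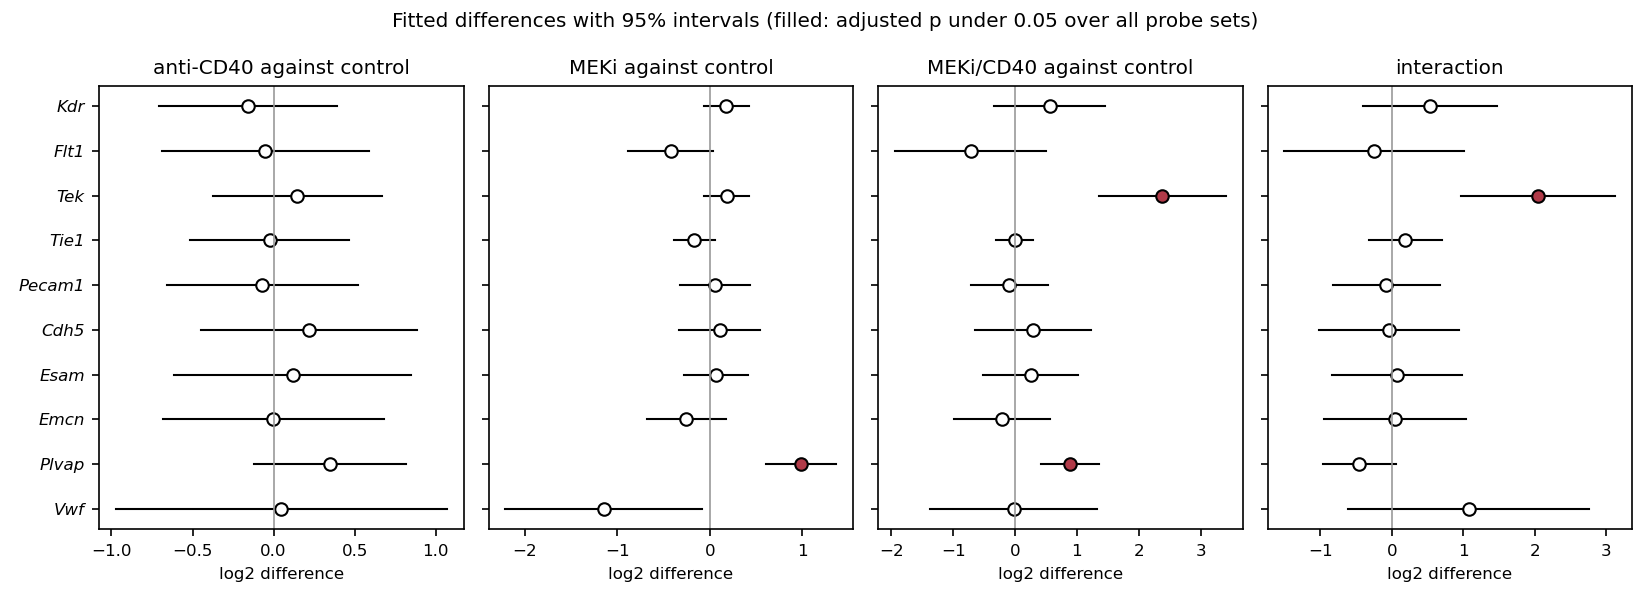
Fitted log2 differences (horizontal axis) with 95% intervals for the 10 genes (vertical axis) against control and for the interaction of both drugs, filled where the adjusted p is under 0.05 over all probe sets. Plvap is filled for MEKi (0.99) and MEKi/CD40 (0.89), Tek for MEKi/CD40 (2.38) and the interaction (2.05), and nothing is filled for anti-CD40.

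Did the agonist CD40 antibody change them on its own? None of the 10 genes was called, and neither was any probe set on the array (0% of 45037 in limma, with 2423 at an unadjusted p under 0.05 and 0 of the 10 genes among these). The fitted differences ran from -0.16 for Kdr to 0.35 for Plvap. Plvap read 8.97, 9.20, 9.37 and 9.53 in anti-CD40 tumors, a range that overlapped control (95% interval of the difference -0.12 to 0.82). The intervals were wide, and the tumors differed within the group. The interval for Pecam1 was -0.66 to 0.52 and for Vwf -0.97 to 1.07. Replicate 1 was the lowest of the 4 anti-CD40 tumors in all 10 genes. Against MEKi tumors the anti-CD40 tumors had less Plvap, with a difference of 0.64 ± 0.13 and no overlap (limma, adjusted p = 0.0376). That was the 1 gene called of 10, with 5.09% of probe sets called. The call was lost without any 1 of 7 of the 9 tumors (anti-CD40 replicates 1, 2 and 3 and MEKi replicates 1, 2, 3 and 5), with adjusted p up to 0.112.

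What did both drugs together do? Against control, 2 of the 10 genes were called, Tek and Plvap, both higher, with 14.9% of all probe sets and 33.3% of those with a mean of at least 5 called in either direction. The 2 of 10 genes called lie between these background shares. Their median difference was 0.13, against -0.07 over the brighter probe sets.

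Tek, the receptor of the angiopoietins, read 3.56, 3.55, 3.51, 3.75 and 3.36 in control tumors, 3.33, 3.55, 4.42 and 3.47 with anti-CD40, 3.54, 3.80, 3.53, 4.02 and 3.75 with MEKi, and 4.67, 6.50, 6.95 and 5.58 with MEKi/CD40. Every MEKi/CD40 tumor lay above every other tumor, and these 4 were spread over more than 2 log2 units. The difference from control was 2.38 ± 0.44, or 5.20-fold (limma, adjusted p = 0.0117). The control mean was above only 53.9% of all control values, so the dim end is close to background and the fold is not exact. Against anti-CD40 the difference was 2.23 ± 0.55 (adjusted p = 0.0498), with Tek the 1 gene called of 10 and 11.6% of probe sets called. Against MEKi it was 2.20 ± 0.45 (adjusted p = 0.0539), with 0 of the 10 genes called, 1 at an unadjusted p under 0.05, and 2.5% of probe sets called.

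The effect of the antibody on Tek differed by whether the inhibitor was present. The interaction in the model of all 18 arrays was 2.05 ± 0.50 (limma, adjusted p = 0.0458). It was the 1 endothelial gene of 10 called, with 2.64% of probe sets called. The call stood close to the threshold and was lost without any 1 of 15 of the 18 tumors (adjusted p up to 0.0919). It held without anti-CD40 replicate 3 and without MEKi/CD40 replicate 1 or 4. The call against anti-CD40 was lost without any 1 of 7 of the 8 tumors, all but MEKi/CD40 replicate 1 (adjusted p up to 0.134). The call against control held without any 1 tumor.

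The mean adipocyte score was highest in the MEKi/CD40 group, as Tek was, so adipocyte content and treatment cannot be told apart here. Within that group the tumors ranked differently by score and by Tek. The 4 MEKi/CD40 tumors had adipocyte scores of 4.33, 11.11, 5.90 and 7.31 in replicate order, beside Tek values of 4.67, 6.50, 6.95 and 5.58. The anti-CD40 tumor with the highest Tek (4.42) also had the highest score of its group (6.28). MEKi replicate 4 was likewise highest in both within its group (Tek 4.02, score 5.56). MEKi/CD40 replicate 1 had a score of 4.33 and a Tek of 4.67. With the score as a covariate the difference of Tek from control was 1.80 (limma, adjusted p = 0.147). Without the 3 tumors of highest score (MEKi/CD40 replicates 2 and 4, anti-CD40 replicate 3) it was 2.26 (limma, adjusted p = 0.0917). Only MEKi/CD40 replicates 1 and 3 remained in that fit, so it had little power. Fibroblast genes were higher in the same group, and their part in the Tek result was not tested. When the fit blocked on the number series, Tek differed from control by 2.37 (adjusted p = 0.0687).

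**Figure D3:**
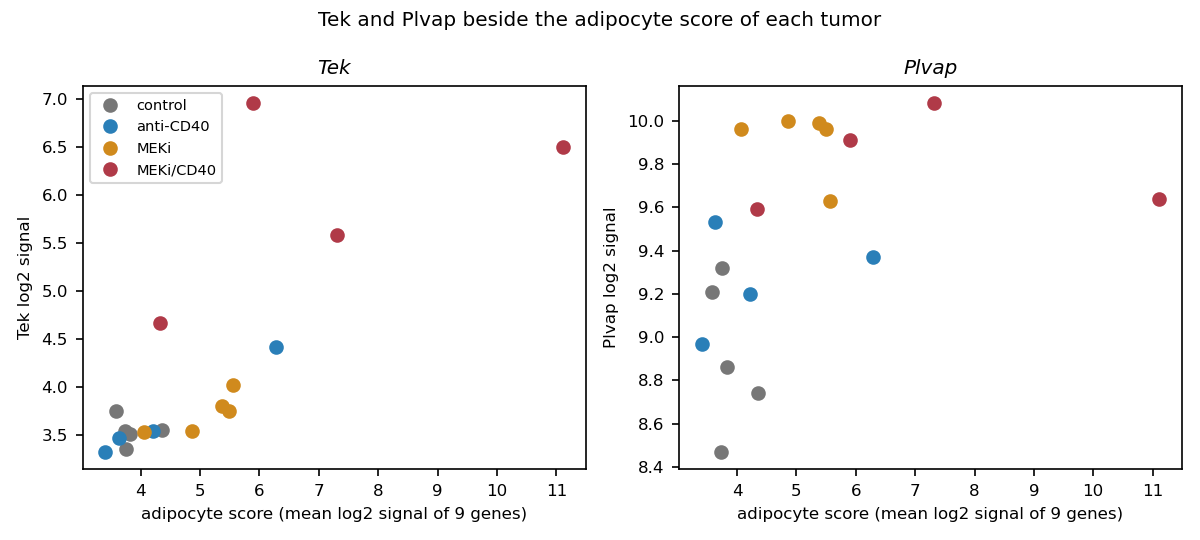
Log2 signal of Tek and of Plvap (vertical axes) against the adipocyte score, the mean log2 signal of 9 genes (horizontal axes), with a point per tumor colored by group. Tek is high in the 4 MEKi/CD40 tumors, whose scores run from 4.33 to 11.11. Plvap is high in the MEKi tumors, at scores of 4.06 to 5.56, and also in the MEKi/CD40 tumors (9.59 to 10.08).

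Plvap read 9.59, 9.64, 9.91 and 10.08 in MEKi/CD40 tumors, above every control and every anti-CD40 tumor and inside or near the range of MEKi tumors. The difference from control was 0.89 ± 0.20, or 1.85-fold (limma, adjusted p = 0.0240). From MEKi it was -0.10, with a 95% interval of -0.40 to 0.19, and from anti-CD40 0.54 ± 0.16 (adjusted p = 0.0923). In order of mean level the groups ran MEKi (9.91), MEKi/CD40 (9.81), anti-CD40 (9.27) and control (8.92). No pair of neighbors in this order passed the test, though MEKi/CD40 and anti-CD40 tumors did not overlap. The interaction was -0.45, with a 95% interval of -0.96 to 0.06. The call against control was lost without control replicate 1 or 3 or MEKi/CD40 replicate 3 or 4 (adjusted p 0.0517 to 0.0648, differences 0.79 to 0.87). With the adipocyte score as a covariate the difference was 0.92 (adjusted p = 0.151).

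None of the remaining genes was called with both drugs against control. Kdr read 4.94, 5.86, 7.01 and 5.99 in MEKi/CD40 tumors, and its difference from control was 0.56 ± 0.38, or 0.90 without replicate 1 and 0.21 without replicate 3. Flt1 on its brightest set read 5.74, 6.75, 8.50 and 7.24, with a difference of -0.72 ± 0.52, or -0.28 without replicate 1 and -1.20 without replicate 3. Both VEGF receptors thus spanned more than 2 log2 units within this group. Pecam1 read 7.19, 7.82, 8.41 and 7.76, and its difference had a 95% interval of -0.71 to 0.53. Cdh5 read 5.85, 7.15, 7.66 and 6.38, with an interval of -0.65 to 1.23. The range of Pecam1 took in all control tumors, and that of Cdh5 reached above them. For Esam the interval was -0.51 to 1.02 and for Emcn -0.99 to 0.57.

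The spread itself had an order. In MEKi/CD40 tumors replicate 1 was the lowest of the group in 9 of 10 genes (all but Tie1), and replicate 3 the highest in 9 of 10 (all but Plvap). The mean of the 10 genes was 6.06 in replicate 1 and 7.74 in replicate 3, a wider range than over the 5 control tumors (6.12 to 6.69) or the 5 MEKi tumors (6.29 to 6.64). Among control tumors replicate 2 was the lowest in 8 genes. The SD was largest in the MEKi/CD40 group for 8 of the 10 genes and smallest in the MEKi group for 7. The macrophage score was also the highest of its group in MEKi/CD40 replicate 3 (12.90), and in control replicate 2, the lowest tumor for endothelial genes, it was 12.59, the highest of its group.

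**Figure D4:**
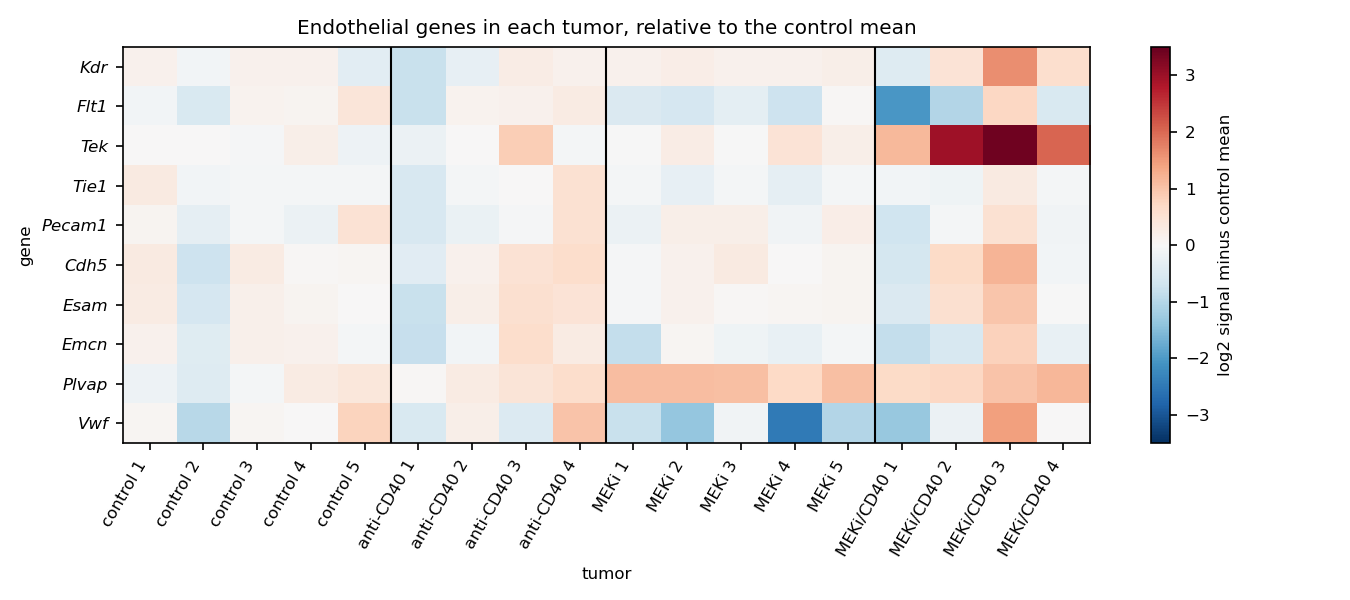
Log2 signal minus the control mean (color) for each of the 10 genes (rows) in each of the 18 tumors (columns, grouped). MEKi/CD40 replicate 1 is low and replicate 3 high in most genes, anti-CD40 replicate 1 is the lowest of its group in all 10, and Plvap is raised in all MEKi and MEKi/CD40 tumors.

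The genes moved together from tumor to tumor to different degrees. As a description over 18 tumors that share their RNA pieces, each gene was correlated with the mean of the other 9. The correlation was 0.89 for Cdh5, 0.88 for Esam, 0.81 for Kdr, 0.71 for Pecam1 and 0.70 for Emcn. It was 0.55 for Flt1, 0.39 for Tek and 0.25 for Plvap. After centering on group means Flt1 reached 0.92 and Plvap 0.55. Flt1 thus followed the other endothelial genes within groups more closely than across them. Against the mean of the other 9 genes in the same tumor, Plvap stood at 2.32 to 2.93 in control and 3.69 to 3.99 in MEKi tumors, and Tek at -3.70 to -2.86 in control and -1.54 to -0.42 in MEKi/CD40 tumors. Both ranges were apart from control, while that of Plvap in MEKi/CD40 tumors (2.42 to 3.92) overlapped it.

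The genes most like the mean of the 10 over the 18 tumors, among those with a mean of at least 7, were Sema6d (r = 0.82), Tspan13 (0.82), Adgrf5 (0.76), Cd93 (0.76), Mmrn2 (0.75), Dhx30 (0.73), Thy1 (0.73) and Pde2a (0.73). After centering on group means they were Mmrn2 (0.93), Sema6d (0.90), Igfbp3 (0.89), Cd93 (0.84), Adgrf5 (0.84), Abcc9 (0.83), Tspan13 (0.82) and Zfp367 (0.80). Cd93 and Mmrn2 form a known ligand and receptor pair of endothelium. Igfbp3 was lower with MEKi by 1.23 ± 0.21 (limma, adjusted p = 0.0146) and with MEKi/CD40 by 1.54 ± 0.35 (adjusted p = 0.0240), the second call being lost without any 1 of 7 of 9 tumors (up to 0.0680).

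Other endothelial identity genes were counted from a list of 22, all measured. With MEKi 2 were higher and 4 lower, with MEKi/CD40 3 were higher and 0 lower, and with anti-CD40 0 changed against control. These counts stand beside the 7.83% (MEKi) and 14.9% (MEKi/CD40) of all probe sets called, and 17.8% and 33.3% of the brighter ones. The same shares apply to each list below. S1pr1, the sphingosine phosphate receptor that tightens junctions, rose by 1.17 ± 0.15 with MEKi (adjusted p = 0.00652) and 1.80 ± 0.18 with MEKi/CD40 (adjusted p = 0.00143 in limma). Ecscr, a regulator of endothelial migration, rose by 1.44 ± 0.31 and 1.77 ± 0.34. Cldn5, the tight junction claudin of endothelium, fell with MEKi by 1.18 ± 0.19 (adjusted p = 0.0118), from 5.83 ± 0.38 (SD) to 4.65 ± 0.18. With MEKi/CD40 it was 5.37 ± 1.22. Icam2 fell with MEKi by 0.74 ± 0.15 and Cd93 by 0.62 ± 0.14. The fourth lower gene was Fli1 (-0.82), an ETS factor, and the third higher with MEKi/CD40 was Eng (0.77), a co-receptor for TGF-beta. Egfl7, an endothelial secreted factor, differed from control by 0.05 with MEKi and 0.52 with MEKi/CD40 and was not called. The list's median difference was -0.02 with MEKi and 0.27 with MEKi/CD40. S1pr1 and Cldn5 kept their calls against control without any 1 tumor. Ecscr with MEKi lost its call without any 1 of 8 of 10 tumors (adjusted p up to 0.0772), Eng without any 1 of 8 of 9 (up to 0.111), Cd93 8 of 10 (0.0858), Fli1 6 of 10 (0.0733) and Icam2 4 of 10 (0.0599). S1pr1 is also made by lymphocytes, and Fli1 and Cd93 by blood cells. Macrophage genes fell with MEKi in 6 of 10 cases, and their part in these values was not tested.

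Of 13 vessel ligands, 5 rose with MEKi and 5 with MEKi/CD40 against control, and 0 fell. Angpt1, the activating ligand of TIE2, read 6.80 ± 0.41 (SD) in control, 7.01 ± 0.83 with anti-CD40, 8.38 ± 0.22 with MEKi and 9.33 ± 0.22 with MEKi/CD40. The rise was 1.57 ± 0.21 (adjusted p = 0.00682) with MEKi and 2.52 ± 0.22 (adjusted p = 0.00112) with both drugs, and MEKi/CD40 exceeded MEKi by 0.95 ± 0.15 (limma, adjusted p = 0.0303). The last call was lost without any 1 of 7 of 9 tumors (up to 0.0890), and the other pair held without any 1. Cxcl12, a stromal chemokine, rose by 3.05 ± 0.45 and 5.40 ± 0.47. Vegfd, a ligand of VEGFR-3, rose by 1.12 ± 0.20 with MEKi and 1.11 ± 0.24 with MEKi/CD40, the second being lost without any 1 of 5 of 9 tumors (up to 0.0576). Vegfa, the main ligand of Kdr, differed from control by -0.04 with MEKi and -0.40 with MEKi/CD40 and was not called (adjusted p = 0.129 for the latter). Apln, adrenomedullin (Adm) and Angptl4 made up the remaining calls. Adm with MEKi kept its call in only 4 of 10 fits that left out 1 tumor (limma, adjusted p up to 0.072). Angptl4 with MEKi/CD40 kept its call in 2 of 9 (up to 0.079). Adm, Angptl4, Fli1 and Eng were named after their values were seen, since the counts are small. Fibroblasts make Cxcl12 and Angpt1, and the fibroblast score rose in the same order of groups. Its part in these values was not tested.

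Among 14 other receptors and co-receptors, the neuropilins were called. Nrp2, a VEGF co-receptor of veins and lymphatics, rose by 0.45 ± 0.05 with MEKi (adjusted p = 0.00551) and 0.45 ± 0.07 with MEKi/CD40. Nrp1, the co-receptor of VEGFR-2, rose by 0.79 ± 0.09 with MEKi/CD40 (limma, adjusted p = 0.00228) and had an interaction of 0.94 ± 0.19 (adjusted p = 0.0227). These 2 were the calls of the list against control, and both held without any 1 tumor. The interaction of Nrp1 was not called without the 3 tumors of highest adipocyte score (adjusted p = 0.104). Both are also expressed by macrophages and fibroblasts.

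Of 9 sprouting genes, 1 rose and 1 fell with MEKi/CD40 and 1 rose with MEKi. Kcne3 fell by 3.33 ± 0.36 with MEKi/CD40 (limma, adjusted p = 0.00187), from 7.25 ± 0.35 (SD) to 3.92 ± 0.74, and had an interaction of -2.17 ± 0.46 (adjusted p = 0.0243). Apln, which marks tip cells, rose by 1.62 ± 0.35 with MEKi and 0.81 ± 0.19 with MEKi/CD40, calls that were lost without any 1 of 6 of 10 and of 6 of 9 tumors (adjusted p up to 0.0733 and 0.0741). Esm1, the defining tip gene of the list, read 8.84 ± 0.71 in control and 7.51 ± 0.50 in MEKi/CD40 tumors and was not called (adjusted p = 0.0744). Of 7 leukocyte adhesion and venous genes, Vcam1 was called with MEKi, higher by 0.44 ± 0.08 (limma, adjusted p = 0.0165, and 0.280 with the adipocyte covariate), and 0 were called with MEKi/CD40 against control. Sele and Selp, the endothelial selectins, had means of 2.16 to 2.55 in the groups, near background. Icam1 differed by 0.72 with MEKi/CD40 and was not called.

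Of 11 vascular basement membrane genes, 3 rose and 1 fell with MEKi/CD40, and 2 rose and 1 fell with MEKi. Hspg2 (perlecan) rose by 0.73 ± 0.14 with MEKi and 1.23 ± 0.10 with MEKi/CD40 (adjusted p = 0.0198 and 0.000898). Nid1 rose by 1.16 ± 0.21 and 2.43 ± 0.24, and Lama4 by 1.47 ± 0.22 with both drugs. Col18a1, the source of endostatin, fell by 1.43 ± 0.20 with MEKi (adjusted p = 0.00790) and 1.50 ± 0.32 with MEKi/CD40, the second being lost without any 1 of 3 of 9 tumors (up to 0.0599). Col4a1, the main vessel wall collagen, differed by 0.18 with MEKi/CD40 and was not called. Fibroblasts also make these proteins.

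Of 14 pericyte and smooth muscle genes, 1 rose and 2 fell with MEKi and 3 rose with MEKi/CD40. The pericyte channel genes Abcc9 and Kcnj8 fell with MEKi by 1.48 ± 0.30 and 1.47 ± 0.37 (adjusted p = 0.0242 and 0.0472 in limma), while Tagln, a contractile protein gene, rose by 1.14 ± 0.22. Abcc9 was no longer called when 1 of 6 of the 10 tumors was left out (adjusted p up to 0.0632), Kcnj8 for 9 of 10 (0.111) and Tagln for 2 of 10 (0.0542). Notch3 rose by 1.70 ± 0.22 with MEKi/CD40, Acta2 by 2.63 ± 0.37 and Pdgfrb by 1.06 ± 0.22. Rgs5, the defining pericyte gene of the list, was near 10 in control (9.91 ± 0.49) and 9.49 ± 1.08 in MEKi/CD40 tumors and was not called. The genes that rose are shared with fibroblasts. Of 6 lymphatic genes measured, Lyve1 alone was called, higher by 5.11 ± 0.52 with MEKi/CD40 (adjusted p = 0.00161), and it is also a macrophage gene. Prox1, which defines lymphatic endothelium, was at or near the lowest value in all groups (means 2.16 to 2.18).

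Several calls on genes outside the 10 did not hold in other fits against control. With the adipocyte score as a covariate, the calls with MEKi were lost for Cd93 (adjusted p = 0.480), Cldn5 (0.0717), Ecscr (0.0598), Igfbp3 (0.142), Kcnj8 (0.174), Tagln (0.130) and Vcam1. Those of Cd93 (0.0547), Ecscr (0.0504) and Kcnj8 (0.0633) were also lost with a block on the number series. With MEKi/CD40 the covariate ended the calls of Angptl4 (0.186), Apln (0.239), Col18a1 (0.228), Csf1r (0.260), Ecscr (0.0733), Eng (0.166), Igfbp3 (0.211), Pdgfrb (0.0933) and Vegfd (0.239). Of these 9, all but Ecscr were also lost with the series block, for example Pdgfrb (0.120) and Col18a1 (0.0643). All 9 were lost without the 3 tumors of highest adipocyte score, Pdgfrb at 0.124 and Ecscr at 0.0870. That fit kept only MEKi/CD40 replicates 1 and 3 and had little power. The calls of S1pr1, Angpt1, Cxcl12, Nrp1, Nrp2, Hspg2 and Nid1 named above held in each of these 3 fits against control. All of them were lost in a fit that blocked on replicate number (limma, adjusted p from 0.05005 to 0.1248). Those with MEKi were also lost in the low series alone, as were those of Nrp1 and Nrp2 with MEKi/CD40.

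**Figure D5:**
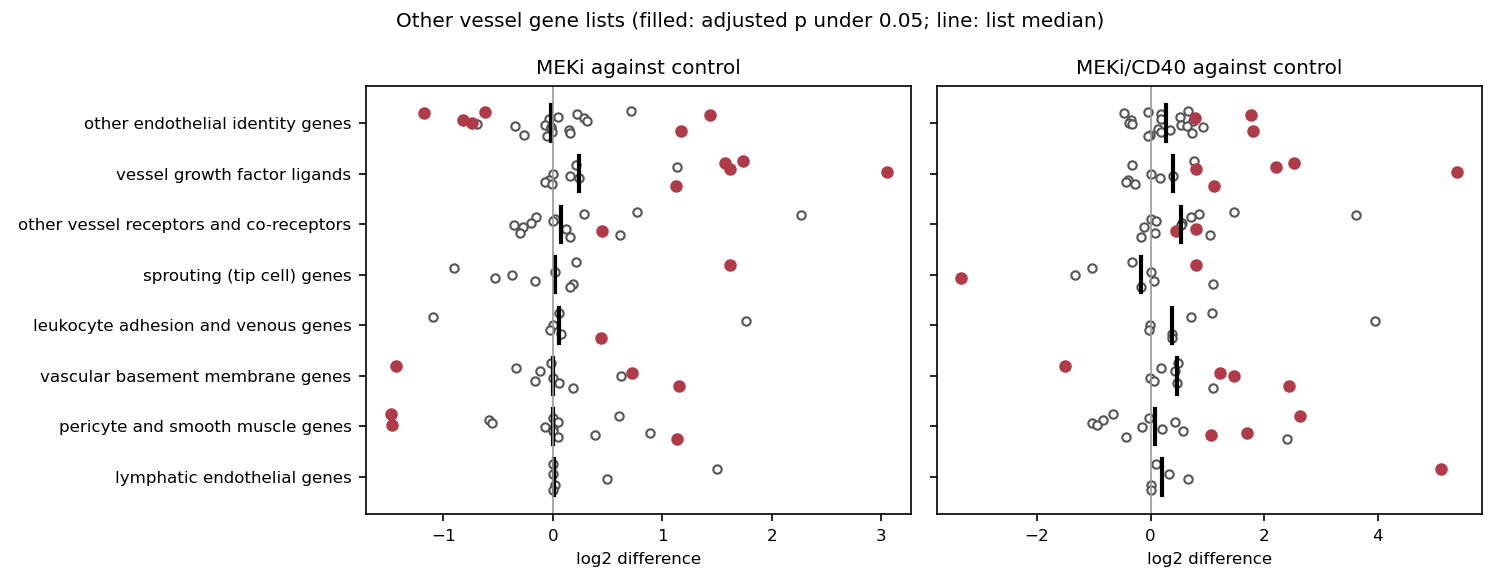
Log2 difference from control (horizontal axis) of each measured gene in 8 other vessel lists (vertical axis), for MEKi and for MEKi/CD40, filled where the adjusted p is under 0.05, with the list median as a line. Ligand calls are all above 0, as for Angpt1 (1.57 and 2.52), while the identity list holds calls on both sides with MEKi (Cldn5 -1.18, S1pr1 1.17).

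Other cells of blood were checked because Pecam1, Tek and Vwf are shared with platelets or myeloid cells. Of 7 platelet genes measured, 0 were called in any comparison with control, and 5 were below 3 in all control tumors. The platelet score had a mean of 3.74 in control and 4.02 in MEKi/CD40 tumors. In the latter it was 4.68 in replicate 3 and 3.75 to 3.84 in the others. Replicate 3 was also the highest of its group in Pecam1, Tek and Vwf, and the part of platelets in these values was not tested. Of 10 macrophage genes 0 rose with MEKi or MEKi/CD40 against control, and Csf1r fell with both, calls that were lost without any 1 of 6 of 10 and of 8 of 9 tumors (adjusted p up to 0.0661 and 0.115). The 8 genes most like Tek alone over the 18 tumors, named after their values were seen, included Epas1 (r = 0.94), the adipocyte gene Lpl (0.92) and the macrophage genes Wfdc17 and Ccl6 (0.91 each). The part of such cells in the Tek values was not tested.

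A sign of RNA quality moved with treatment. The log2 difference of the 3′ and 5′ probe sets of Gapdh was -0.28 to -0.23 in control and -0.22 to -0.16 in MEKi/CD40 tumors, with no overlap. That of Actb averaged 0.33 in control, 0.35 with anti-CD40, 0.39 with MEKi and 0.41 with MEKi/CD40. Its part in the results was not tested.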

How the data were processed

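Whole tumor RNA of 18 mice was measured on Affymetrix Mouse430_2 arrays. The deposited values are log2 intensities, 1 per probe set and array. The authors made them by RMA (version not given in the sources used here). They run from 2.16 to 16.34, and 34.5% equal the lowest value, unlike plain RMA, so the background step is uncertain. Array medians were 2.72 to 2.95. The number of arrays limits the precision.

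Of 45101 probe sets, 64 controls were set aside and 45037 tested, unfiltered. The brightest probe set with 1 symbol stood for a gene. R 4.3.3 and limma 3.58.1 (lmFit, eBayes) gave a fit for each pair of groups and, for the interaction of both drugs, a fit on 18 arrays. Benjamini-Hochberg adjustment covered every tested probe set (threshold 0.05). ± after a difference is the standard error, after a mean the SD. A score is the mean log2 value of a list's measured genes. Scripts were tested on simulated data.

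The 10 genes, the lists and the naming rule were chosen with earlier results of these data known. The rule named all 10 genes, per other list and comparison up to 3 called genes in order of p, each list's first gene, and 8 genes most correlated with the mean of the 10, over all arrays and within groups. Alternatives were other scaling, a filter, other fits, blocks, an adipocyte covariate and leaving out arrays.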

Additional observations from a re-analysis of the deposited data

Results flagged for a closer look

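Of 40 sets of values (10 genes in 4 groups), 5 had a tumor far from the rest of its group by Dixon's test, which chance flags in about 1 in 20. These were Cdh5 in control replicate 2 (5.76, the next value 6.51), Flt1 in anti-CD40 replicate 1 (7.00, next 7.90), Plvap in MEKi replicate 4 (9.63, next 9.96), and Tie1 in control replicate 1 (3.04, next 2.64) and MEKi/CD40 replicate 3 (3.03, next 2.64), the last pair near background. Among the endothelial and other vessel genes, the effect of adding anti-CD40 differed with and without MEKi for 3. These were 1 of the 10 genes, 1 of 14 other receptors and 1 of 9 sprouting genes, with 0 in the other vessel lists. Over the array 2.64% of all probe sets and 5.41% of those with a mean of at least 5 were called for the interaction. The interaction was 2.05 for Tek, 0.94 for Nrp1 and -2.17 for Kcne3 (limma, adjusted p = 0.0458, 0.0227 and 0.0243). Those of Nrp1 and Kcne3 held without any 1 of the 18 tumors.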

How the results depend on the processing

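Over the 10 genes, 7 comparisons and all alternatives, 1445 values kept their side of the threshold, 64 lost a call, 7 gained one and 0 reversed. For MEKi against control the number of genes called stayed 1 except 0 with the low number series only and with the replicate block. For MEKi/CD40 against control (2 called) it was 1 with the filter on dim probe sets, which removes Tek, 1 with the number series block, and 0 with the low series only, the adipocyte covariate, or without the 3 arrays of highest adipocyte score. For MEKi/CD40 against anti-CD40 (1 called) it was 2 in 1 model of all 4 groups and 0 with cyclic loess, quantile normalization, trend and robust eBayes, the covariate, without those 3 arrays, and with values below 3 raised to 3 (an alternative chosen after seeing the data). For MEKi/CD40 against MEKi (0 called) it was 1 in the model of all groups, with quantile normalization and with the mean of all probe sets of a gene, each time Tek. For MEKi against anti-CD40 (1 called) it was 0 with trend and robust eBayes, the number series block, the low series, the covariate, and without the 3 arrays. For the interaction (1 called) it was 0 with cyclic loess, quantile normalization, the filter, the number series block, the low series, the covariate, and without the 3 arrays. Leaving out 1 tumor gave 1 to 2 genes for MEKi/CD40 against control, 1 for MEKi against control, 0 for anti-CD40 against control, and 0 to 1 for the other comparisons and the interaction. Apart from the filter, which removes Tek, and from smaller sets of arrays, the cause was not tested. Sets with 2 tumors in a group have little power, and a lost call there is no sign of a smaller difference. Such are the low series and, for MEKi/CD40, the sets without the 3 arrays of highest adipocyte score.

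Replicate numbers are shared between groups, and what they stand for is not stated. Deviations of same-numbered tumors had correlations of -0.38 to 0.28. With 4 or 5 pairs per comparison, these cannot show whether such tumors share more than a number. In the control and MEKi groups, same-numbered tumors also fall into the same number series. With the replicate block, 0 genes were called for MEKi/CD40 against control (Plvap 0.99, adjusted p = 0.0532), MEKi against control (Plvap 0.99, 0.113), MEKi against anti-CD40 and the interaction, and 1, Plvap, for MEKi/CD40 against anti-CD40 (0.54, 0.0387).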
